A study of Mus musculus with 6 samples.

Results

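Integrins are the receptors that tie a cell to the matrix around it, and the laminins, nidogens, perlecan, agrin and dystroglycan are the parts of, or the receptors for, the basement membrane. The group described here is the set of these genes in a count table from sorted mouse synovial fibroblasts: every integrin alpha chain with a numbered symbol except 1, the integrin beta chains 1 to 8, every laminin chain found, and Itgal, Itgav, Nid1, Nid2, Hspg2, Agrn and Dag1. The rule used gene symbols alone and no measured value. It found 36 of the 24348 genes in the table, of which 21 encode integrin chains and 15 encode basement membrane proteins or their receptor. These members, and the lists of other genes used below, were chosen with earlier results of these data known. Their counts set beside those of all genes are therefore descriptions. The integrin chains Itgam and Itgax and the laminin chain Lama1 were not analysed here.

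Total RNA was sequenced from fibroblasts sorted from the dissected and collagenase-digested synovium, the lining tissue of the joint, of adult wild-type C57BL/6 mice. There were 3 libraries from mice that received immune complexes (IC; antigen bound to antibody, in this study ovalbumin with rabbit anti-ovalbumin) by the intravenous route and 3 from mice that received vehicle, and the 2 groups share strain, tissue and sort. The labels do not say whether each library came from 1 mouse, so p-values measure the spread between libraries only. The gate used for the sort and the time between injection and sampling are not given for this experiment in the sources used here.

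An integrin is a pair of 1 alpha and 1 beta chain, and the alpha chain largely sets whether it binds collagen, laminin or proteins with an RGD (arginine-glycine-aspartate) motif such as fibronectin. A laminin is a trimer of 1 alpha, 1 beta and 1 gamma chain, which polymerises into a sheet. Nidogens bridge this sheet to the network of type IV collagen, perlecan and agrin add heparan sulfate, and integrins and dystroglycan anchor it to the cell. Fibroblasts do not sit on a continuous basement membrane, but they are known to secrete many of its parts.

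Total counts ranged from 40114331 to 56714304 per library and overlapped between groups. The members together took 0.967% to 1.17% of all counts, the integrins 0.164% to 0.169% and the basement membrane genes 0.800% to 1.01%. Gm42418, which overlaps a ribosomal RNA repeat, took 0.964% of the counts of vehicle replicate 1 and 0.375% to 0.553% in the others. The fibroblast label was checked against 9 fibroblast markers, all present, which summed to 44000 to 45700 CPM (counts scaled to a common library total) after IC and 45200 to 55000 after vehicle. Of these 9, 2 were called lower by DESeq2, Col3a1 (log2 fold change −0.38, adjusted p 0.00679) and Lum (−0.36, 0.0025), 0 were called higher, and 8 were below 0. The leukocyte markers in the table, 5 of 8 listed, summed to 1.04 to 1.98 CPM after IC and 0.997 to 1.75 CPM after vehicle. In bulk samples, fewer cells of a type and less RNA per cell cannot be told apart.

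After IC, 2 integrin alpha chains rose and 2 genes of the basement membrane and its receptor fell. Itga5, the alpha chain of the fibronectin receptor, was 1.32-fold higher and Itga10, the alpha chain of a collagen receptor, 1.60-fold higher. Dag1, which encodes the laminin receptor dystroglycan, was at 0.744 of its vehicle level, and Nid1, which encodes the linker protein nidogen-1, at 0.793. These 4 are the members called by the Wald test of DESeq2 at an adjusted p under 0.05 over all genes tested. All 36 members had enough counts to be tested, and 1 of them, Itgb2, was too low to receive an adjusted p.

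The 4 called members are 11.1% of the 36, against 2.10% of the 19925 genes tested. With the test restricted to the 13435 genes whose normalized counts averaged 100 or more, 3.19% were called, and 5 of the 31 members among them, the 4 above and Nid2. By direction, 2 of the 36 were called higher, against 1.03% of all genes, and 2 lower, against 1.07%. With edgeR (quasi-likelihood, 0.186% of genes called) 0 members passed, although 12 had an unadjusted p under 0.05 there (9.64% of genes), and limma-voom (0.311% called) passed 1, Itga5. DESeq2 itself gave 13 members an unadjusted p under 0.05 (9.80% of genes), 3 higher (4.91%) and 10 lower (4.88%). Without vehicle replicate 1 the count was 7 (3.52% of genes called). It was 2 when IC replicate 2 (1.47%), IC replicate 3 (1.52%) or vehicle replicate 2 (1.45%) was dropped.

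The promoters of the 4 called genes are given first, since they are the members whose mRNA passed the test. For Itga5, Itga10 and Dag1 they are the 250 bases just before the RefSeq start on GRCm38.p6, read on the strand of the gene. For Nid1, whose GENCODE start lies 51 bases before the RefSeq one, they are the 199 bases before the GENCODE start. For Itga5 this is chr15:103366792-103367041 on the minus strand, for Itga10 chr3:96645334-96645583 on the plus strand, for Dag1 chr9:108263959-108264208 on the minus strand, and for Nid1 chr13:13437352-13437550 on the plus strand. Capitals mark matches on either strand to the motifs searched.
Itga5: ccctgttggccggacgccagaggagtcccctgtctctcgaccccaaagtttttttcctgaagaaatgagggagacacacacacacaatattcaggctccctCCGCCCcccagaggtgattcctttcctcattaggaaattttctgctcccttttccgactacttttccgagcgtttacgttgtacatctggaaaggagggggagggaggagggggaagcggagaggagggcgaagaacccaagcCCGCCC
Itga10: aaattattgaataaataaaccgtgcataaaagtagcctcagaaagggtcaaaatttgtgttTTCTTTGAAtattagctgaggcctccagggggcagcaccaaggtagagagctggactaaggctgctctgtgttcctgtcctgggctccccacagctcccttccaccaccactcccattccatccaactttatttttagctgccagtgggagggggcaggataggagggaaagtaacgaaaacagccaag
Dag1: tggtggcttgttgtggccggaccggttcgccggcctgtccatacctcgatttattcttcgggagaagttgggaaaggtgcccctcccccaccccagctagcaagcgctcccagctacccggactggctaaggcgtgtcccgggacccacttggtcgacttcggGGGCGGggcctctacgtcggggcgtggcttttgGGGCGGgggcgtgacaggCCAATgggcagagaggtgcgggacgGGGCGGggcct
Nid1: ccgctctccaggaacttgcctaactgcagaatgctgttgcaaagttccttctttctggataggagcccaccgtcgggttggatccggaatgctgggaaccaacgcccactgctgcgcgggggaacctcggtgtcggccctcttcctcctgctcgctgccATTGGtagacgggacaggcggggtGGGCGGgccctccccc
The motifs were the GC box GGGCGG, the CCAAT box CCAAT, the AP-1 site TGANTCA, the STAT site TTCNNNGAA, the interferon response element (GAAA, any 2 bases, GAAA) and the TATA box TATAAA. Among 32851 RefSeq promoters of 250 bases, 32.7% held a GC box, 33.8% a CCAAT box, 6.75% an AP-1 site, 7.02% a STAT site, 2.98% the interferon element and 12.4% a TATA box. Itga5 had 2 GC boxes, and Itga10 had 1 STAT site and no GC box. Dag1 had 3 GC boxes and 1 CCAAT box, and Nid1 had 1 of each in its shorter window. The GC content was 55.6%, 48.0%, 67.6% and 64.4% in this order, for Nid1 over the full 250 bases before the RefSeq start. The median of all promoters was 52.4%. The letters of the other motifs did not occur in these windows, and a match is a description of the sequence and not a binding site.

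Levels differ between these genes by orders of magnitude. They are compared here as counts divided by the DESeq2 size factor (normalized counts) per kilobase of merged exon, averaged over the 6 libraries. Nid1 had the highest level at 11180 per kb, followed by Hspg2 (perlecan) at 10300, Lamb2 at 8184, Lamc1 at 6367 and Itgb1 at 4370. The ranges over libraries of Nid1 (9343 to 13970) and Hspg2 overlapped, as the plot of levels shows. Dag1 (2442), Itgb5 (2408), Itga11 (2400), Itga5 (2373) and Lama2 (2191) were close together. The lowest were Itgb2 (7.59), Itgb6 (6.28) and Itga4 (3.61).

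**Figure D1:**
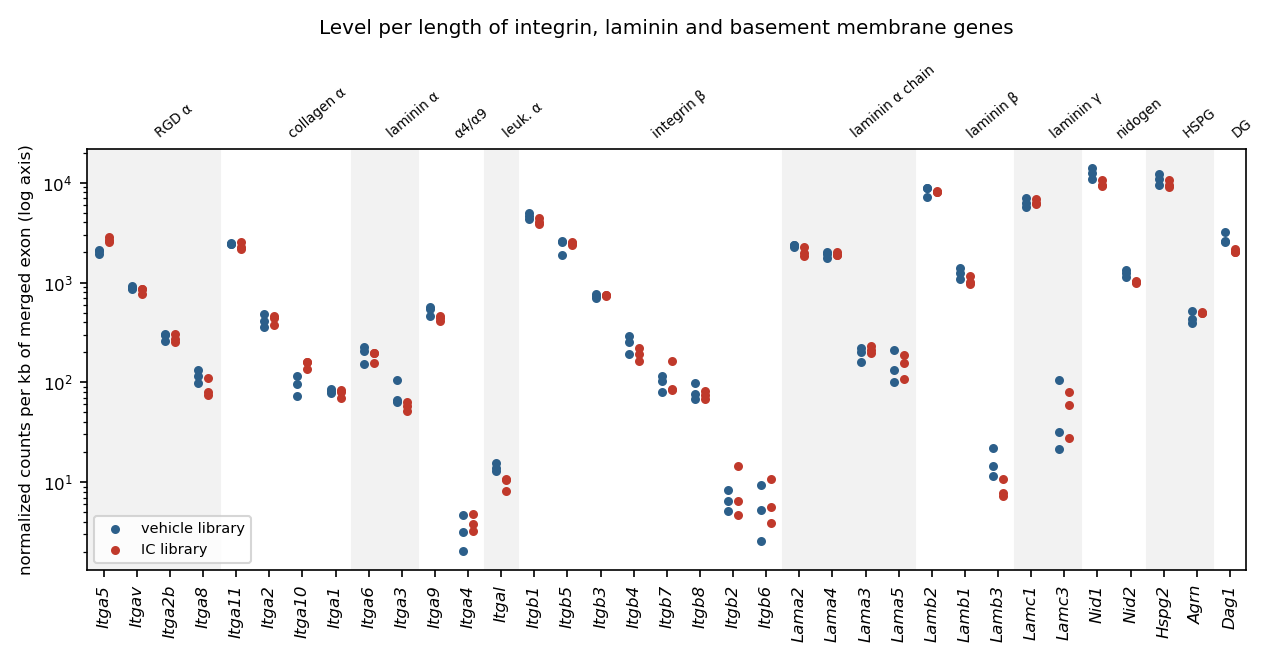
Level of 35 of the 36 genes in normalized counts per kb of merged exon (log axis), grouped by role (RGD, collagen and laminin name what an integrin alpha chain binds; HSPG is heparan sulfate proteoglycan, DG dystroglycan), with 1 point per library in blue for vehicle and red for IC. Nid1 (mean 11180), Hspg2 (10300) and Lamb2 (8184) lie highest, and Itga4 (3.61) lowest.

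Read by chain, the fibroblast levels per kb were led by 1 gene in most roles. Lamc1 made up 97.0% ± 0.16 (SD, n = 3) of the laminin gamma chains after IC and 97.4% ± 0.92 after vehicle. Lamb2 made up 88.4% ± 1.0 and 86.7% ± 0.7 of the beta chains. The alpha chains were the exception, since Lama2 and Lama4 had nearly equal levels. Itgb1, the beta chain shared by the most integrins, held 53.3% ± 1.7 and 56.8% ± 1.8 of the beta chains per kb. Itgb5, a partner of the alpha v chain, held 32.0% ± 0.85 and 28.7% ± 2.5.

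Among the RGD-binding alpha chains, Itga5 was the one that rose. Itga5 (ENSMUSG00000000555, GRCm38 chr15:103344286-103366763, minus strand) had 12680, 13150 and 14150 normalized counts in the IC libraries and 10100, 9596 and 10560 in the vehicle libraries. Every IC library was above every vehicle library. The log2 fold change was 0.40 (SE 0.0786, DESeq2 adjusted p 8.2e-05). It passed in all 6 fits that each left out 1 library, with an adjusted p of at most 0.00273, and missed the threshold with edgeR (0.0698). Alpha 5 pairs with beta 1 alone to bind fibronectin.

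Itgav, which encodes the alpha chain of the vitronectin receptors, had 9297, 8237 and 9328 normalized counts after IC and 9388, 10020 and 9310 after vehicle. These groups overlapped, and the log2 fold change was −0.10 (95% interval −0.26 to 0.06, DESeq2 adjusted p 0.782). Itga8, the alpha chain of a receptor for nephronectin, differed by −0.38 on the log2 scale (adjusted p 0.381), also with overlap. Itga2b, known as the platelet integrin alpha chain, was listed with 1390 to 1680 normalized counts in the 6 libraries, while the 2 platelet markers in the table, of 5 listed, summed to 0 to 0.528 CPM. Its log2 fold change was −0.06 (adjusted p 0.951).

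As a share of the 4 RGD-binding alpha chains per kb, Itga5 held 67.3%, 70.0% and 70.4% in the IC libraries and 62.5%, 58.9% and 62.3% in the vehicle libraries. This share does not depend on how libraries are scaled. It was 8.01 percentage points higher after IC, with no overlap (exact two-sided permutation p 0.1, the smallest that 3 against 3 libraries allow). It uses the same Itga5 counts as the call, so it is not a separate test of it. The share of Itgav was 21.4% ± 1.3 after IC and 26.7% ± 1.5 after vehicle, without overlap. Shares within a role have a fixed total, so this is not a result separate from the Itga5 share. The log2 ratio of Itga5 to Itgb1 counts was −0.37, −0.27 and −0.35 after IC and −0.80, −1.07 and −0.84 after vehicle, so Itga5 was higher relative to its partner chain in every IC library.

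The collagen-binding alpha chains were led by Itga11, whose product pairs with beta 1 to bind fibrillar collagen on fibroblasts. Itga11 had 2400 normalized counts per kb and a log2 fold change of −0.08 (95% interval −0.24 to 0.09, DESeq2 adjusted p 0.863). The called gene of this role was Itga10 (ENSMUSG00000090210, chr3:96645584-96664519, plus strand), best known from cartilage. Itga10 had 697.5, 836.2 and 829.8 normalized counts after IC and 376.4, 502.5 and 605.5 after vehicle. The groups did not overlap, but the vehicle libraries spread 1.61-fold from lowest to highest.

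The log2 fold change of Itga10 was 0.67 (SE 0.190, DESeq2 adjusted p 0.0208; edgeR 0.175). The call stood without IC replicate 1 (0.0415) and without vehicle replicate 3 (0.00386), and was lost when any of the other 4 libraries was left out (0.0698 to 0.197). Exons of Itga10 share 1739 bases with Gm42957 on the same strand, so reads there could be assigned to either gene. The summed CPM of 8 chondrocyte and bone markers in the table, of 11 listed, was 743 to 862 after IC and 452 to 700 after vehicle, with 1 called higher, Acan. Most of this sum was Comp (622 to 720 and 366 to 593 CPM, DESeq2 adjusted p 0.577), and the list split, since 2 of its genes lay apart higher and 2 apart lower, Col2a1 (3.65 to 4.96 and 4.98 to 8.99 CPM) among the lower. Its part in the Itga10 result was not tested. Itga2 (log2 fold change 0.04) and Itga1 (−0.08) were not called.

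**Figure D2:**
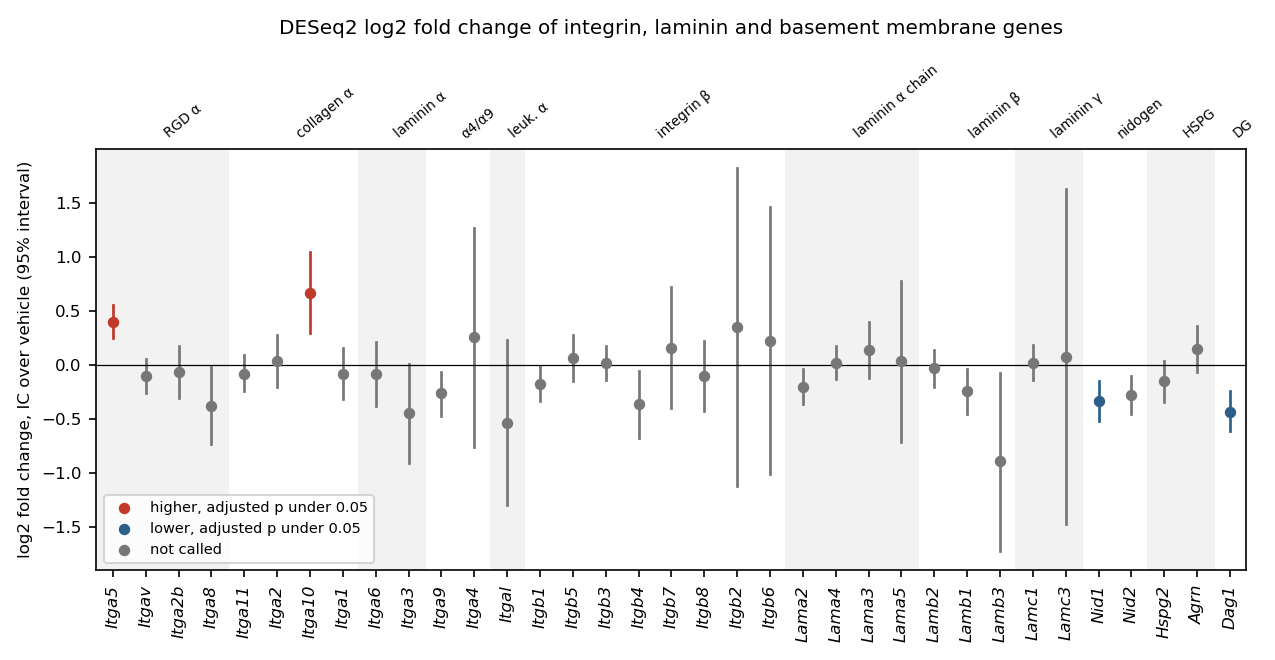
DESeq2 log2 fold change, IC over vehicle, of 35 of the 36 genes with its 95% interval, grouped by role; red and blue mark adjusted p under 0.05, grey marks genes not called. Itga5 (0.40) and Itga10 (0.67) lie above 0, Dag1 (−0.43) and Nid1 (−0.33) below, and the widest intervals belong to genes with few counts or with spread between replicates, such as Itgb2 and Lamc3.

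The laminin-binding alpha chains Itga6 and Itga3 were low. Itga6 had 188.9 normalized counts per kb and a log2 fold change of −0.08 (DESeq2 adjusted p 0.937). Itga3 had 297.5, 361.8 and 328.0 normalized counts after IC and 598.6, 364.6 and 376.9 after vehicle. These groups lay apart by a small margin, with vehicle replicate 1 far above the rest, and the log2 fold change of −0.44 had an adjusted p of 0.458. Itgb4, the beta chain that pairs with alpha 6 in hemidesmosomes, was at −0.36 on the log2 scale (adjusted p 0.308), and was called with 1 surrogate variable as a term.

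Of the remaining alpha chains, Itga9, a receptor chain for tenascin-C and osteopontin, had 3417, 3559 and 3138 normalized counts after IC and 3577, 4392 and 4183 after vehicle. All 3 IC libraries lay below, vehicle replicate 1 by only a little, and the log2 fold change was −0.26 (DESeq2 adjusted p 0.190; called without vehicle replicate 1). Itga4, whose product binds VCAM-1, had 28.34 to 66.31 normalized counts and overlapping groups. Itgal, the alpha chain of the leukocyte integrin LFA-1, had 52.89, 70.28 and 69.00 normalized counts after IC and 84.45, 102.0 and 91.19 after vehicle. The IC libraries were lower, without a call (log2 fold change −0.53, adjusted p 0.707).

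No integrin beta chain was called by DESeq2 or edgeR. An unadjusted p under 0.05 held for 2 of the 8 with DESeq2 (9.80% of all genes) and 1 with edgeR (9.64%). Itgb1 had 16410, 15850 and 18050 normalized counts after IC and 17580, 20200 and 18910 after vehicle. IC replicate 3 was above vehicle replicate 1, and the log2 fold change was −0.17 (DESeq2 adjusted p 0.381). Itgb5 (log2 fold change 0.07, 95% interval −0.15 to 0.28) and Itgb3 (0.02, −0.14 to 0.18), the beta chains of the vitronectin receptors, had overlapping groups. Itgb2, the leukocyte beta chain, had 14.33 to 43.91 normalized counts and no adjusted p. Itgb6, Itgb7 and Itgb8 had log2 fold changes from −0.10 to 0.22.

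Dystroglycan, the non-integrin receptor, was lower after IC. Dag1 (ENSMUSG00000039952, chr9:108204634-108263958, minus strand) had 13870, 12910 and 12970 normalized counts in the IC libraries and 16290, 20480 and 16650 in the vehicle libraries. The IC libraries were tightly grouped and below all vehicle libraries, of which replicate 2 stood highest. The log2 fold change was −0.43 (SE 0.0944, DESeq2 adjusted p 0.000851; edgeR 0.0985). It passed in all 6 fits that each left out 1 library, from −0.31 without vehicle replicate 2 (adjusted p 0.00644) to −0.49 without vehicle replicate 1. The highest adjusted p among these was 0.0249.

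**Figure D3:**
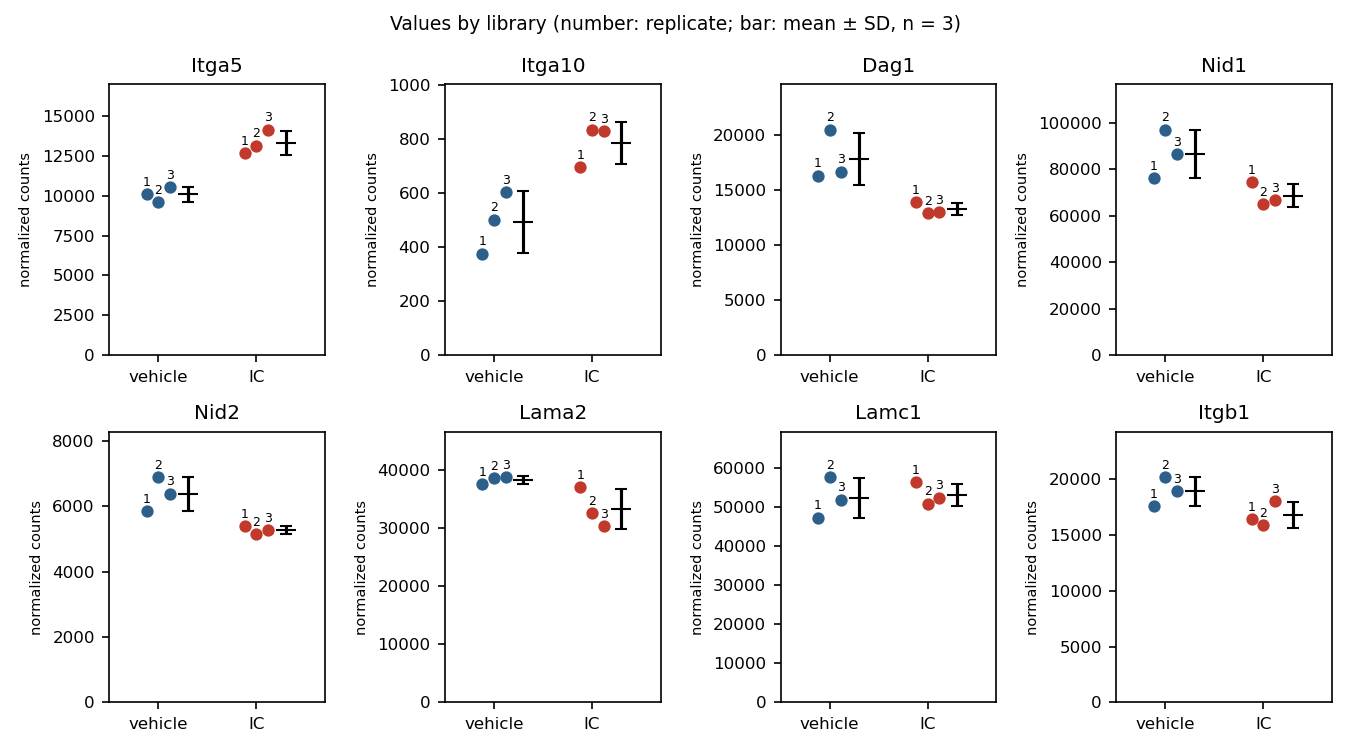
Normalized counts of 8 genes in each library (blue vehicle, red IC; the number is the replicate) with the mean ± SD of each group (n = 3). The IC and vehicle points do not overlap for Itga5, Itga10, Dag1, Nid1, Nid2 and Lama2, and overlap for Lamc1 and Itgb1; vehicle replicate 2 is the highest of the vehicle libraries for Dag1, Nid1, Nid2, Lamc1 and Itgb1.

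Both nidogens were lower after IC, and 1 of them passed the test. Nid1 (ENSMUSG00000005397, chr13:13437551-13512269, plus strand) had 74480, 64870 and 66630 normalized counts after IC and 76030, 97010 and 86540 after vehicle. The groups lay apart, though IC replicate 1 and vehicle replicate 1 were close. The log2 fold change was −0.33 (SE 0.0937, DESeq2 adjusted p 0.0206; edgeR 0.230). The call stood with IC replicate 1 dropped (0.0179) or vehicle replicate 1 dropped (0.000121). Dropping any of the other 4 libraries lost it (0.141 to 0.247), as did a fit with 1 surrogate variable (0.124).

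Nid2, the second nidogen gene (chr14:19751265-19811787, plus strand), had 5391, 5155 and 5268 normalized counts after IC and 5854, 6902 and 6388 after vehicle. The IC libraries again lay below, with a log2 fold change of −0.28 (SE 0.0872, DESeq2 adjusted p 0.0575). It passed with TMM scaling (0.0466), with total counts as size factors (0.0318), with genes of a mean of at least 100 only (0.0392) and without vehicle replicate 1 (0.00191). Nid1 held 90.6% ± 0.44 of the nidogen level per kb after IC and 91.0% ± 0.32 after vehicle. The log2 ratio of Nid1 to Nid2 counts was 3.70 after IC and 3.76 after vehicle, with overlap. Exons of Nid1 share 143 bases with Gm48682, and those of Nid2 437 bases with Rtraf, both on the opposite strand.

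Against the laminin that nidogen binds, the change in Nid1 was unequal. The log2 ratio of Nid1 to Lamc1 counts, whose product carries the nidogen binding site, was 0.41, 0.35 and 0.35 in the IC libraries and 0.69, 0.75 and 0.74 in the vehicle libraries. These did not overlap (exact two-sided permutation p 0.1, the smallest possible). The ratio uses the same Nid1 counts as the call, so it is not a separate test of it. Lamc1 itself had 56200, 50790 and 52330 normalized counts after IC and 47230, 57640 and 51830 after vehicle. Its log2 fold change was 0.02 (95% interval −0.14 to 0.19).

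None of the 10 laminin genes was called by DESeq2. edgeR also called 0. With either tool 4 of the 10 had an unadjusted p under 0.05 (9.80% of all genes with DESeq2, 9.64% with edgeR). With DESeq2, 3 of them were lower (4.88% of all genes). Lamb2, the leading beta chain, had 49030, 50020 and 48640 normalized counts after IC and 43550, 53750 and 53680 after vehicle. Its IC libraries lay inside the vehicle range (log2 fold change −0.03, 95% interval −0.20 to 0.14). Lamb1 had a log2 fold change of −0.24 (DESeq2 adjusted p 0.264) and was called without vehicle replicate 1.

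Lama2, the alpha chain of the muscle and nerve laminin, had 37060, 32510 and 30330 normalized counts after IC and 37490, 38590 and 38790 after vehicle. The vehicle libraries were within 1.03-fold of each other and the IC libraries below them, IC replicate 1 only just. The log2 fold change was −0.20 (SE 0.0831, DESeq2 adjusted p 0.240; 0.0141 without IC replicate 1). Lama4, an alpha chain known from vessel walls, overlapped between groups (log2 fold change 0.02, 95% interval −0.13 to 0.18). As a share of alpha chains per kb, Lama2 held 48.2%, 46.6% and 45.9% after IC and 52.0%, 50.3% and 51.0% after vehicle. Lama4 held 44.7% ± 1.6 and 41.5% ± 1.6. Both shares lay apart between groups (exact two-sided permutation p 0.1). Shares within a role have a fixed total, so they are not separate results.

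**Figure D4:**
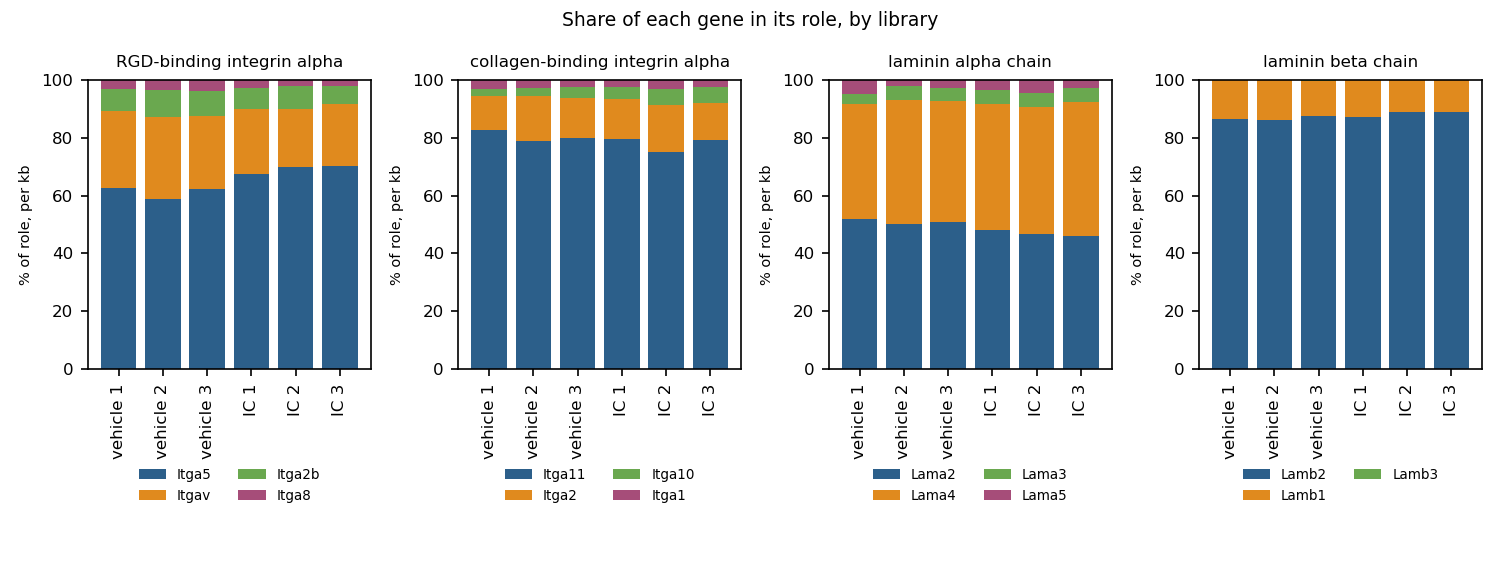
Share of each gene in the summed level per kb of its role (percent, stacked from 0 to 100), 1 bar per library with vehicle at left and IC at right. Itga5 holds 58.9% to 62.5% of the RGD-binding alpha chains in vehicle and 67.3% to 70.4% in IC libraries, and Lama2 50.3% to 52.0% and 45.9% to 48.2% of the laminin alpha chains.

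Lamb3, a beta chain known from epithelial attachment, had 71.63, 47.55 and 51.97 normalized counts after IC and 95.93, 76.51 and 145.9 after vehicle. The IC libraries lay lower, at few counts, and the log2 fold change of −0.89 had a DESeq2 adjusted p of 0.359. Lama3, an alpha chain of epithelial laminin, overlapped between groups (log2 fold change 0.14, adjusted p 0.823).

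Lamc3 and Lama5 varied within groups more than between them. Lamc3 had 491.5, 360.7 and 166.7 normalized counts after IC and 637.9, 130.4 and 193.3 after vehicle, a log2 fold change of 0.08 with a 95% interval of −1.47 to 1.63. Lama5, an alpha chain of epithelium and vessels, had 1785, 2121 and 1242 after IC and 2384, 1134 and 1502 after vehicle. Vehicle replicate 1 held the highest value of both, as it did of Itga3. The 5 epithelial and keratinocyte markers in the table, of 7 listed, summed to 53.1, 49.1 and 41.4 CPM in the IC libraries and 73.9, 10.8 and 39.6 in the vehicle libraries. No epithelial marker was called, none was at 0 in any library, and the part of such cells in these 3 genes was not tested.

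**Figure D5:**
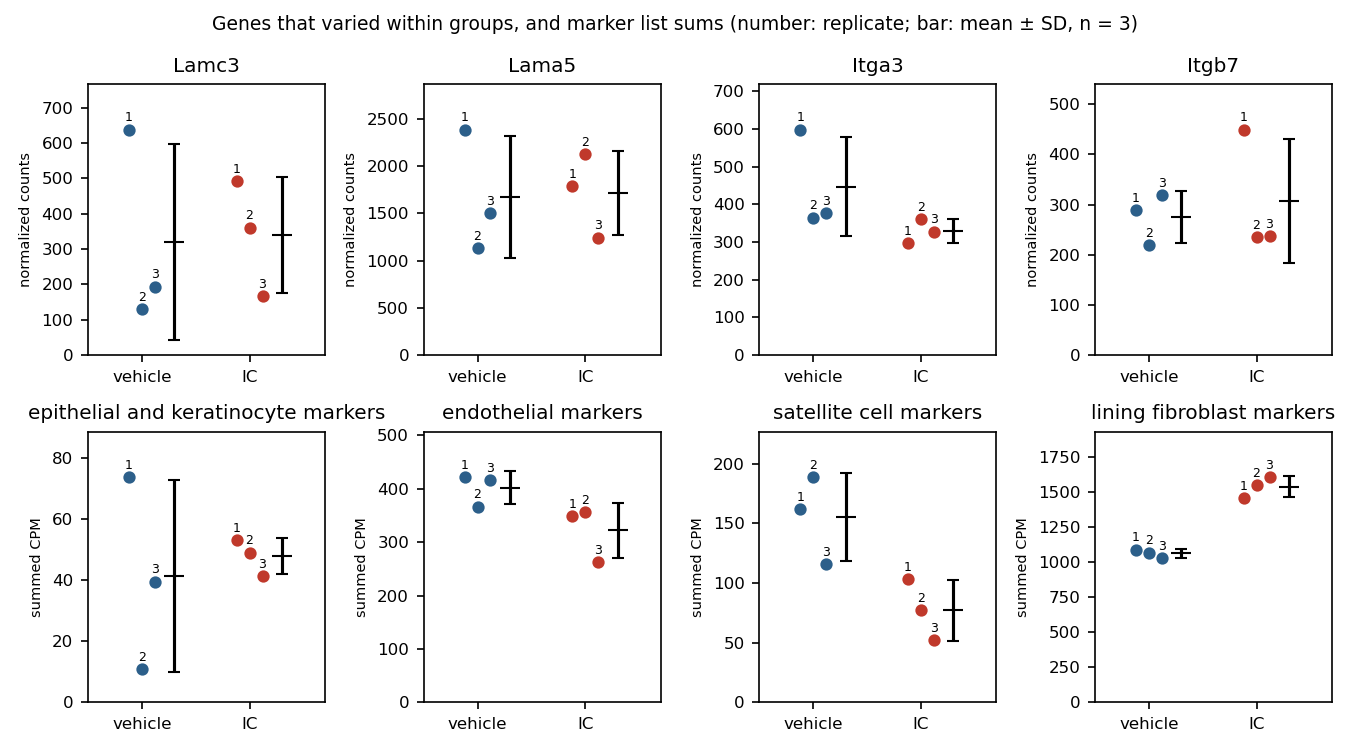
Upper row, normalized counts of 4 genes that varied within groups; lower row, summed CPM of 4 lists of cell type markers; points are libraries with their replicate number (blue vehicle, red IC), bars the mean ± SD (n = 3). Vehicle replicate 1 is highest for Lamc3 (637.9), Lama5 (2384), Itga3 (598.6) and the epithelial and keratinocyte markers (73.9 CPM), while endothelial and satellite cell markers are lower in every IC library.

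The 2 heparan sulfate proteoglycans had overlapping groups. Hspg2 had 153000, 136500 and 129200 normalized counts after IC and 135500, 174800 and 154900 after vehicle (log2 fold change −0.15, 95% interval −0.34 to 0.04). Agrn had a log2 fold change of 0.15 (−0.06 to 0.36) and was called without vehicle replicate 1.

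Counted over libraries, 11 of the 36 members (30.6%) had no overlap between IC and vehicle, against 15.8% of all genes tested. Of these, 3 were higher (8.09% of all genes), Itga5 and Itga10 among them, and 8 lower (7.67%), namely Dag1, Nid1, Nid2, Lama2, Lamb3, Itga3, Itga9 and Itgal. The median log2 fold change of the members was −0.07, with 16 above and 20 below 0, and that of all genes tested was −0.00. Vehicle replicate 2 held the highest of the 6 values for 15 of the 36 members (41.7%). For the 13435 genes with a mean of at least 100, a filter that 31 of the 36 members met, this was 22.6%. Among the 15 basement membrane genes, taken without that filter, vehicle replicate 2 was the highest vehicle library for 10 (66.7%), against 37.6% of those 13435 genes. The fall in Dag1 and Nid1 was smaller without it (−0.31 and −0.24 on the log2 scale).

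Markers of some other cells moved in the same direction as the lower members. Of 15 endothelial markers, all in the table, 3 were called lower (Cdh5, Kdr and Cldn5), and their summed level was 263 to 356 CPM after IC and 366 to 422 after vehicle. Sox17 was at 0 in vehicle replicate 2, and the other endothelial markers were above 0 in every library. The 8 satellite cell markers summed to 51.9 to 103 CPM after IC and 116 to 189 after vehicle, with 2 called lower and Myog at 0 in 2 IC libraries. The 14 skeletal muscle markers summed to 23.2 to 45.6 CPM after IC and 40.5 to 106 after vehicle, with 3 called lower and Pvalb at 0 in 1 IC library. The 10 mural cell markers in the table, of 11 listed, summed to 507 to 620 CPM and 619 to 656, with 1 called lower and none at 0. The skeletal muscle and mural cell sums overlapped between groups. So did those of Schwann cell markers (695 to 828 CPM after IC, 719 to 746 after vehicle) and macrophage markers (45.3 to 65.6 and 52.6 to 65.1). With edgeR 0 genes of the endothelial, satellite cell, skeletal muscle and mural cell lists were called. The part of these cells in the fall of Dag1 and Nid1 was not tested, nor was that of the fibroblast list, in which Col3a1 and Lum fell.

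Markers within the fibroblasts moved too. The 5 lining fibroblast markers summed to 1460 to 1610 CPM after IC and 1030 to 1090 after vehicle. Prg4 and Has1 were called higher, Clic5 and Tspan15 lower, so the list did not move as 1. The 7 sublining markers summed to 4390 to 5170 CPM and 4860 to 5310, with 0 called by DESeq2, 3 at an unadjusted p under 0.05, and 0 called by edgeR. Whether the 2 layers were taken in equal proportion was not tested.

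Among other parts of the basement membrane, type IV collagen forms the second network that nidogen holds to the laminin sheet. Of 10 basement membrane collagens, 3 were called lower (1.07% of all genes) and 0 higher (1.03%), with a median log2 fold change of −0.20. The called genes were Col4a5 (log2 fold change −0.65, DESeq2 adjusted p 6.67e-05), Col15a1 (−0.31, 0.0283) and Col4a4 (−0.40, 0.0468). Col4a5 had 2659, 2613 and 2375 normalized counts after IC and 3199, 4580 and 4224 after vehicle, and passed in all 6 fits that each left out 1 library, whereas Col15a1 passed in 2 and Col4a4 in 1. Col4a1 (0.02) and Col4a2 (0.06), which encode the chains of the common type IV collagen, overlapped between groups. Of 19 other basement membrane proteins tested, 1 was called (2.10% of all genes), Smoc2, a SPARC-family protein (−0.40, adjusted p 0.0136). Its groups overlapped, and it passed in 2 of the 6 such fits. The median of that list was −0.14. With edgeR none of these 4 called genes passed (adjusted p 0.0602 for Col4a5 and 0.197 to 0.247 for the others).

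The ligands of the integrins moved in both directions. Of 14 tested, 2 were called higher (1.03% of all genes) and 1 lower (1.07%). Spp1, which encodes osteopontin, an RGD ligand, had 1189, 1409 and 1039 normalized counts after IC and 716.6, 527.1 and 846.3 after vehicle (log2 fold change 0.80, DESeq2 adjusted p 0.00109), and stayed called in 5 of the 6 fits with 1 library removed. Tnc, tenascin-C, was higher (0.46, 0.0351) with overlap between groups, and passed in 2 of them. Fn1, fibronectin, the ligand of the Itga5 product, had 247200, 204200 and 243400 normalized counts after IC and 250900, 340600 and 289900 after vehicle. It was lower at −0.34 (0.0494), and passed in 1 of the 6. None of the 3 passed with edgeR.

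Another list held 29 genes that control integrin activation, in either direction, or link integrins to actin. Of these, 1 was called (2.10% of all genes), Actn1, which encodes the actin crosslinker alpha-actinin-1. Actn1 had 2519, 3153 and 2633 normalized counts after IC and 1895, 2103 and 1744 after vehicle, a log2 fold change of 0.53 (DESeq2 adjusted p 0.000963; edgeR 0.0836), and passed in all 6 fits that each left out 1 library. The median of the list was 0.03, with 18 above and 11 below 0. An unadjusted p under 0.05 held for 4 with DESeq2 (9.80% of all genes) and 2 with edgeR (9.64%). With DESeq2 all 4 were higher (4.91% of all genes). The groups lay apart for 5 (15.8% of all genes), all higher (8.09%). Of 20 genes of the dystrophin complex and of the enzymes that glycosylate dystroglycan, 0 were called by DESeq2 or edgeR. An unadjusted p under 0.05 held for 3 with each tool (9.80% and 9.64% of all genes). The median of these 20 was −0.10, with 17 below 0. Dmd, dystrophin, had a log2 fold change of −0.39 (DESeq2 adjusted p 0.185) and Utrn, its relative outside muscle, 0.05. A last list covered the cleavage of laminins and nidogens, and not all of its genes, such as Meltf, encode proteases. Of its 10 tested genes, 0 were called and 0 had an unadjusted p under 0.05 with either tool.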

How the data were processed

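The authors deposited raw counts of reads per gene for 6 libraries. Per the labels, reads were trimmed with Trim Galore, aligned to mm10 with HISAT2 and counted with featureCounts; versions, annotation and use of strand are not given in the sources used here, so reads of overlapping genes may be split. The labels and the methods name different total RNA kits, and the methods remove batch effects with sva without detail. Groups came from the labels.

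The 19925 genes that reached 10 counts in 3 or more libraries were fitted with DESeq2 (1.42.0, default workflow, treatment only). Calls used a Benjamini-Hochberg adjusted p under 0.05 over all genes, and log2 fold changes are unshrunken. Intervals are 95% and cover the fit only. Lengths, coordinates and exon overlaps came from GENCODE M21 genes of the same symbol (36 of 36 members), on GRCm38, the assembly that mm10 names; promoters came from RefSeq on GRCm38.p6. Libraries within groups differed by more than sampling noise. Alternatives were edgeR (4.0.16), limma-voom (3.58.1), other scalings and filters, 1 surrogate variable from sva (3.50.0), the replicate number as a block, and each library left out; the tests were checked on simulated data. Fits that left out 1 library kept the other arm whole and pooled the spread.

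Named were called members, members whose groups did not overlap, the leading member of each role, and called genes of the lists. Other genes, motifs and marker lists were chosen for context. The members and lists were chosen with earlier results of these data known. 2 symbols are not reported here.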

Additional observations from a re-analysis of the deposited data

How the results depend on the processing

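Of the 4 called members, Itga5 and Dag1 passed in all 6 fits that each left out 1 library, and Itga10 and Nid1 in 2 each. Over these fits the number called ran from 2 to 7, with 1 to 2 higher and 1 to 5 lower. edgeR called 0 members (0 higher, 0 lower; 12 at an unadjusted p under 0.05), edgeR with the replicate number as a block 0 (0 and 0), and limma-voom 1 (1 higher, 0 lower); the cause was not tested. An unadjusted p under 0.05 from DESeq2 held for 13 members, 10 of them lower. With the replicate block in DESeq2, 3 members were called, and the lower ones numbered 1, since Nid1 had an adjusted p of 0.0712. Same-numbered libraries did not deviate together (correlations of −0.092, −0.164 and 0.025 over 13435 genes), so the numbers were not taken as pairs. TMM, total counts and a mean of at least 100 each gave 5 calls, adding Nid2. No scaling moved the median of all genes by over 0.1. With 1 surrogate variable, which separated vehicle replicate 2 (score 0.908) from the rest, the log2 fold changes of Lama5 (−0.16), Lamb2 (0.02) and Lamc3 (−0.22) changed sign, Itgb4 was called and Nid1 was not. Signs also changed in fits that left out 1 library for members near 0 or with wide spread, with log2 fold changes from −0.14 to 0.00 for Itga1, −0.06 to 0.16 for Itga2, −0.23 to 0.04 for Itga6, −0.27 to 0.64 for Itgb2, −0.01 to 0.05 for Itgb3, −0.07 to 0.14 for Itgb5, −0.29 to 0.78 for Itgb6, −0.22 to 0.32 for Itgb7, −0.21 to 0.06 for Itgb8, −0.03 to 0.07 for Lama4, −0.18 to 0.38 for Lama5, −0.13 to 0.02 for Lamb2, −0.04 to 0.10 for Lamc1 and −0.29 to 1.07 for Lamc3. For the 5 leading chains, the difference in share, IC minus vehicle, kept its direction and moved by less than 1 SD (both groups pooled). This held with the longest transcript, with no division by length and without each library. The shares themselves, and the order of Lama2 and Lama4, were not compared between the lengths used. The difference for Lamc1, −0.375 points, ran from −0.907 without vehicle replicate 1 to −0.09 without vehicle replicate 2. With 3 libraries a group the exact test cannot go below 0.1, and the widest intervals belong to Itgb2, Itgb6, Itga4 and Lamc3.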
